A study of Mus musculus with 23 samples.

Results

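The mitochondrial respiratory chain was followed in the brains of mice whose recipient mothers had eaten 1 of 3 diets. The members were all probes for genes named Nduf (complex I and its assembly factors), Sdha to Sdhd (complex II), Uqcr (complex III), Cox5 to Cox8 (complex IV), and Atp5 (complex V), chosen by name and not by their values. The rule did not take the Cox4 genes, which were counted with the other subunits outside it. The rule took 115 of the 39429 probes on the array and covered 85 genes. By complex, 46 probes belonged to complex I, 6 to complex II, 11 to complex III, 21 to complex IV, and 24 to complex V. The remaining 7 were for assembly factors and related proteins that are not subunits (Ndufaf1 to Ndufaf4, Atp5s, and Atp5sl). Of the 115 probes, 114 were well above the local background on all 12 arrays. The exception was Cox8c, which was not well above background on any array.

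The respiratory chain sits in the inner mitochondrial membrane. Complexes I and II pass electrons from NADH and succinate to coenzyme Q, complex III passes them on to cytochrome c, and complex IV hands them to oxygen. Complexes I, III, and IV pump protons as they work, and complex V, the ATP synthase, uses the returning protons to make ATP. In each of complexes I, III, and IV, a small catalytic core is surrounded by accessory subunits, most of them short proteins. Neurons depend heavily on this pathway, because synaptic transmission and ion pumping consume most of the ATP of the brain.

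Whole brains, including cerebrum and cerebellum, came from adult male C57BL/6J mice. All of them arose from C57BL/6J gametes by in vitro fertilization and were transferred into ICR recipient females. The 4 CD mice had recipient mothers on the AIN93G control diet, the 4 PR mice on a protein-restricted diet, and the 4 FA mice on the protein-restricted diet with added folic acid, from 1 month before transfer until delivery. All progenies were born by cesarean section, nursed by ICR foster mothers, weaned onto the control diet, and used in behavioral tests before their brains were taken. The study's methods give the control diet as the only feed of the foster mothers, whereas the legend of its design lists all of the diets for them, so the diet during nursing is not settled here. No group ate a restricted diet after weaning. The labels do not give the litter of each mouse. If mice of a group shared a litter, the p-values measure a spread that is smaller than that between litters.

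One array was hybridized per mouse. The number of spots well above background ranged from 27068 to 28458 on the CD arrays, from 31266 to 33478 on the PR arrays, and from 30408 to 31672 on the FA arrays. The 4 arrays of each diet shared a scan, so that diet and scan cannot be told apart in any result below. The neuronal markers fixed for the tissue check passed the background flag on each of the 12 arrays for all 6 of their probes, as did the 12 probes of astrocyte and the 11 probes of oligodendrocyte markers. In whole brain, fewer cells of a type and less RNA per cell cannot be told apart. Values are log2 intensities of the normalized table, and a probe was called at an adjusted p under 0.05 in the fit across all 39429 probes with limma.

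PR brains were compared with CD brains, and FA brains with CD brains, to see which subunits differed after the restricted diets. In PR, 27 of the 115 probes were called lower than in CD (23.5%) and 8 higher (6.96%). Across all probes, 16.6% were called lower and 13.4% higher in this comparison. In FA, 23 probes were called lower (20.0%, against 18% of all probes) and 12 higher (10.4%, against 16.4% of all probes). The members are bright probes, and among the 3014 probes at least as bright as their lower quartile, 11.7% were called lower and 14.6% higher in PR, and 13.3% lower and 17.6% higher in FA. The median difference over the 115 probes was -0.06 in both comparisons, while it was -0.02 and -0.01 over all probes. The share of lower calls among the members was thus above that of these 3014 bright probes in both comparisons. In FA it was close to that of all probes. The share of higher calls among the members was below that of both sets. The 3014 probes have only a lower limit of brightness and hold members too, so they are not a matched set. Without CD replicate 1, PR replicate 3, or PR replicate 4, only 3 probes were higher in PR, and without CD replicate 2 only 5. Without FA replicate 1 or FA replicate 2, 14 and 15 probes were lower in FA.

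**Figure D1:**
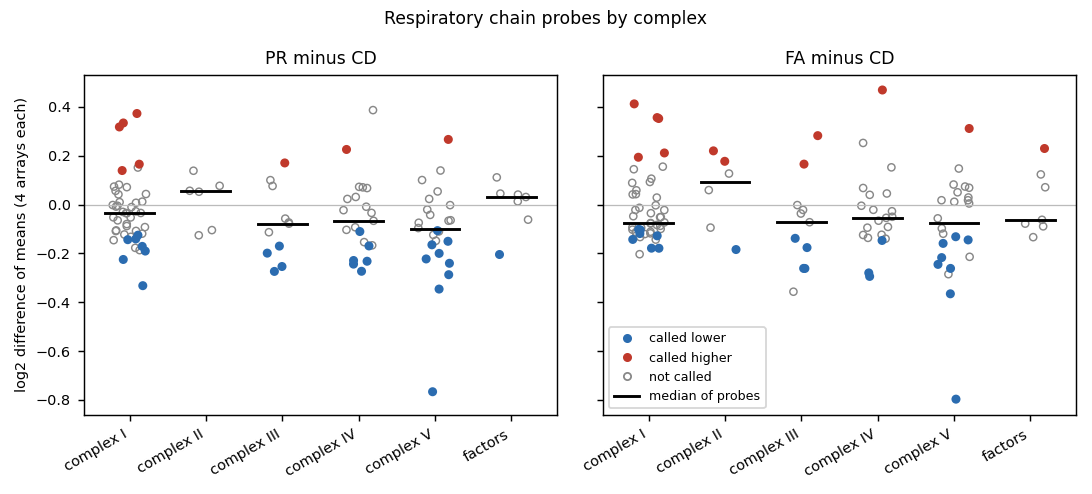
Log2 difference of each member probe from CD (vertical axis), in PR (left) and FA (right), sorted by complex, with 1 circle per probe, filled where it was called, and a black line at the median of each complex. Most probes lie within 0.2 of 0, the lowest point is the Atp5c1 probe near -0.8 in complex V, and filled points lie on both sides of 0 in complexes I, III, IV, and V.

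The differences were small. None of the 115 probes reached 2-fold at an adjusted p under 0.0001 in any comparison of the limma fit. The study's methods set these limits on a Tukey test, and the study reported called genes in each comparison. At these limits 0.0862% of all probes were called by limma in PR against CD, 0.195% in FA against CD, and 0% in FA against PR. The members ranged from -0.77 to 0.39 in PR and from -0.80 to 0.47 in FA. Replicates lay close together, with a median SD within groups of 0.06 over the members and 0.10 over the 23753 probes whose background flag was passed on every array.

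Complex I, the NADH dehydrogenase, had calls in both directions. Of its 46 probes, 7 were lower and 5 higher in PR, and 7 were lower and 5 higher in FA. Beside the counts of this and the other complexes, 16.6% of all probes were lower and 13.4% higher in PR. In FA, the shares over all probes were 18% lower and 16.4% higher. Only the 7 nuclear genes of the catalytic core of complex I are called the core here. Its subunits encoded in the mitochondrion are outside the naming rule and are counted further below. The core and the 39 probes of accessory subunits had medians on opposite sides of 0. The core had a median difference of 0.14 in PR and 0.11 in FA, with 3 probes called higher and 0 called lower in each comparison. The accessory subunits had a median of -0.06 in PR and -0.09 in FA, with 7 probes called lower and 2 higher in each. With each array scaled to its 75th percentile, the core medians turned to -0.01 and -0.02 and the core had 1 probe called lower and 1 higher in each comparison. The accessory subunits then had 23 called lower in PR and 24 in FA, with 2 higher in each. Probes at least as bright as the members' lower quartile had medians of -0.12 and -0.10. Relative to these bright probes, the core stood 0.11 and 0.08 higher and the accessory subunits -0.07 and -0.07, so that their order did not depend on the scaling.

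Ndufv2, a core subunit that carries an iron-sulfur cluster beside the NADH site, had log2 intensities of 14.79, 14.72, 14.93 and 14.91 in the CD arrays, 14.96, 14.98, 15.04 and 15.03 in the PR arrays and 15.05, 15.07, 15.06 and 15.01 in the FA arrays. The PR and FA arrays all lay above the CD arrays, the highest of which was at 14.93. Ndufv2 rose by 0.17 ± 0.05 (adjusted p = 0.0322) in PR and by 0.21 ± 0.05 (adjusted p = 0.00894) in FA. The PR call of Ndufv2 was lost at the 75th percentile scaling (0.03), with only these groups fitted (0.17), and without CD replicate 1 (0.15), CD replicate 2 (0.13), PR replicate 3 (0.15), or PR replicate 4 (0.16). The FA call was lost at the 75th percentile scaling (0.09). Ndufv1, which binds NADH and FMN, differed by 0.14 ± 0.04 in PR (adjusted p = 0.0219) and by 0.11 ± 0.04 in FA (adjusted p = 0.059), so that only the PR difference was called. At the 75th percentile scaling the PR difference of Ndufv1 was -0.01, and the call was lost without CD replicate 1 (0.12) or PR replicate 4 (0.13). For Ndufs8, another iron-sulfur subunit, the values were 0.15 ± 0.06 in PR (adjusted p = 0.0716) and 0.19 ± 0.06 in FA (adjusted p = 0.0247). Ndufs1, Ndufs3, and Ndufs7 were not called in either comparison, with values between -0.03 and 0.09. The 95% interval of the PR difference was -0.09 to 0.10 for Ndufs1, -0.13 to 0.07 for Ndufs3, and -0.10 to 0.18 for Ndufs7.

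Among the accessory subunits, Ndufa10, a protein related to nucleoside kinases, showed the clearest rise. Its intensities were 13.37, 13.30, 13.41 and 13.42 in the CD arrays, 13.74, 13.69, 13.76 and 13.80 in the PR arrays and 13.71, 13.63, 13.87 and 13.71 in the FA arrays. The groups on the restricted diets did not overlap with CD, and the difference was 0.37 ± 0.06 (adjusted p = 0.000734) in PR against CD and 0.36 ± 0.06 (adjusted p = 0.000808) in FA against CD. Most other calls among the accessory subunits were lower ones. Ndufb2, a subunit of the membrane arm, fell by 0.19 ± 0.04 in PR (adjusted p = 0.007) and by 0.18 ± 0.04 in FA (adjusted p = 0.00797) by 1 probe. Its other probe was at -0.19 ± 0.08 and -0.20 ± 0.08, which was not called. Ndufb3, also of the membrane arm, was at -0.23 ± 0.05 in PR (adjusted p = 0.00548) and -0.12 ± 0.05 in FA (adjusted p = 0.0721), where only the first was called. Smaller lower calls came from Ndufa6 (-0.14) and Ndufa8 (-0.17) in PR, and from Ndufa1 (-0.13), Ndufa4 (-0.14), and Ndufs5 (-0.10) in FA, whose values in the other comparison lay between -0.12 and -0.05. Ndufs6 (-0.13 and -0.10) and 1 probe of Ndufv3 (-0.14 and -0.12) were called lower in both PR and FA. Ndufa4, named for complex I, has since been placed with complex IV. Ndufab1, the acyl carrier protein of the mitochondrion, was called lower in FA (-0.18, adjusted p = 0.0492). It was also at -0.18 in PR, where it was not called (adjusted p = 0.0562). The probe of Ndufa12 had the smallest difference of complex I in FA, at -0.00 with a 95% interval of -0.09 to 0.09.

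**Figure D2:**
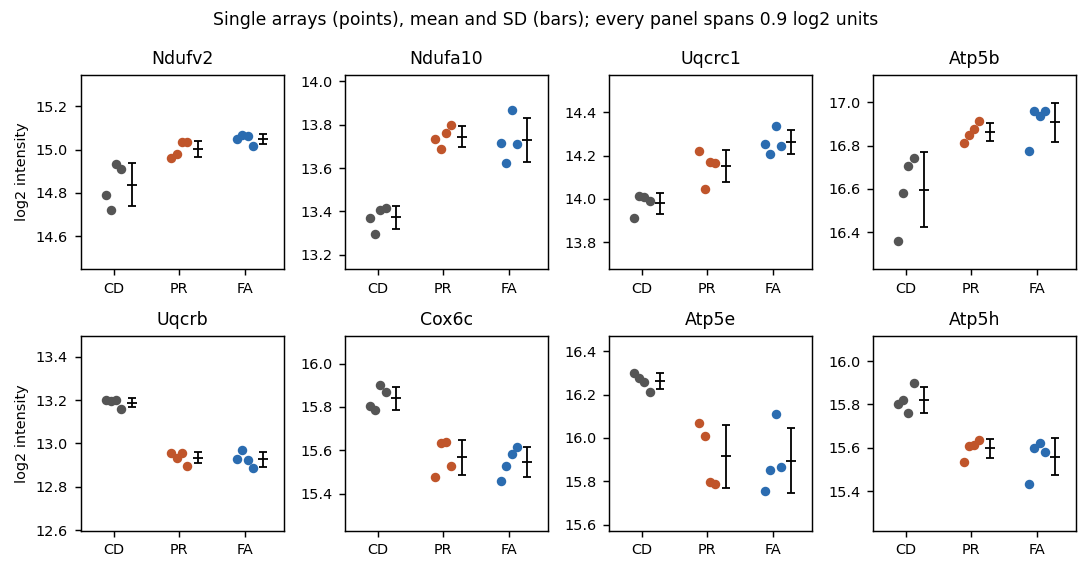
Log2 intensity (vertical axis) of 8 member probes in the single arrays of CD, PR, and FA, with the mean and SD of each group beside the points. In Ndufv2, Ndufa10, Uqcrc1, and Atp5b all PR and FA points lie above the CD points, and in Uqcrb, Cox6c, Atp5e, and Atp5h all of them lie below.

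Complex II, succinate dehydrogenase, is also an enzyme of the tricarboxylic acid cycle, and all of its subunits are encoded in the nucleus. None of its 6 probes was called in PR. In FA, Sdha, the flavoprotein that oxidizes succinate, rose by 0.18 ± 0.06 (adjusted p = 0.0358). A probe of Sdhc, a membrane anchor, rose by 0.22 ± 0.06 (adjusted p = 0.0165), while the other Sdhc probe was at 0.06 ± 0.05 (adjusted p = 0.388). The CD and FA arrays of Sdha overlapped (14.57 to 14.85 in CD and 14.84 to 14.91 in FA), and the call was lost when only these groups were fitted, at the 75th percentile scaling (0.06), with a replicate block (0.18), and without any of CD replicates 2 to 4 or FA replicates 1 to 4 (0.13 to 0.19). Sdhb, the iron-sulfur subunit, had probes on opposite sides of 0 in FA, at -0.18 ± 0.05 (adjusted p = 0.0108) and 0.13 ± 0.05 (adjusted p = 0.0942). Sdhd, the other anchor, was at -0.10 and -0.09 and was not called.

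In complex III, the cytochrome bc1 complex, 4 of 11 probes were lower and 1 higher in PR, and 4 were lower and 2 higher in FA. Uqcrc1 and Uqcrc2, the large core proteins on the matrix side, lay above 0. The intensities of Uqcrc1 were 13.91, 14.01, 14.01 and 13.99 in the CD arrays, 14.22, 14.05, 14.17 and 14.17 in the PR arrays and 14.26, 14.21, 14.34 and 14.25 in the FA arrays. All PR and FA arrays exceeded the CD arrays, with a difference of 0.17 ± 0.05 (adjusted p = 0.024) in PR against CD and 0.28 ± 0.05 (adjusted p = 0.00154) in FA against CD. The PR call was lost without CD replicate 1 (0.15), PR replicate 1 (0.15), PR replicate 3 (0.16), or PR replicate 4 (0.17), and at the 75th percentile scaling (0.07). Uqcrc2 was at 0.10 ± 0.04 in PR (adjusted p = 0.116) and rose by 0.17 ± 0.04 in FA (adjusted p = 0.0151), a call that was lost at the 75th percentile scaling (0.05). Uqcrfs1, the Rieske iron-sulfur protein, was not called, at -0.06 in PR and -0.00 in FA. The lower calls came from Uqcrb and Uqcrq, both short subunits close to the coenzyme Q pocket. Uqcrq fell by 0.17 ± 0.04 in PR (adjusted p = 0.00704) and by 0.18 ± 0.04 in FA (adjusted p = 0.00482) by 1 probe. Its other probe was the least precise of the members, with CD arrays at 12.88, 13.09, 13.64, and 13.99, and was not called.

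Uqcrb was the only gene with several probes whose probes were all called the same way in each comparison, of 23 such genes. The probe A_55_P2088218 had intensities of 13.20, 13.19, 13.20 and 13.16 in the CD arrays, 12.95, 12.93, 12.95 and 12.90 in the PR arrays and 12.93, 12.97, 12.93 and 12.89 in the FA arrays. CD was separated from both other groups by more than the whole range of any group, and the probe fell by 0.25 ± 0.03 in PR (adjusted p = 0.000424) and by 0.26 ± 0.03 in FA (adjusted p = 0.000296). The probe A_55_P1965402 fell by 0.27 ± 0.05 in PR (adjusted p = 0.00208) and by 0.26 ± 0.05 in FA (adjusted p = 0.00219), and A_66_P132663 fell by 0.20 ± 0.05 in PR (adjusted p = 0.00998) and by 0.14 ± 0.05 in FA (adjusted p = 0.0434). The probes overlap on mm9 chromosome 13 between 67001654 and 67001750, so that they are not independent measurements of the transcript. They are shown over their shared 23 bases, because their letters are not identical there, with the differing letter in capitals.
Uqcrb A_55_P1965402: aggagagagaAgagtgggcaaag
Uqcrb A_55_P2088218: aggagagagaGgagtgggcaaag
Uqcrb A_66_P132663: aggagagagaAgagtgggcaaag
The files list predicted transcript records for A_55_P1965402 and A_55_P2088218 as well, and whether RNA from a near-identical copy binds to them was not tested.

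In complex IV, cytochrome c oxidase, 6 of 21 probes were lower and 1 higher in PR, and 3 were lower and 1 higher in FA. The nuclear subunits of this complex surround a catalytic core that is encoded in the mitochondrion. Cox6c, a short subunit that spans the membrane, fell most. Its intensities were 15.81, 15.79, 15.90 and 15.87 in the CD arrays, 15.48, 15.63, 15.64 and 15.53 in the PR arrays and 15.46, 15.53, 15.58 and 15.62 in the FA arrays. The CD arrays lay above all others, and Cox6c fell by 0.27 ± 0.05 in PR (adjusted p = 0.00371) and by 0.29 ± 0.05 in FA (adjusted p = 0.00201). Cox5a and Cox5b, subunits on the matrix side, were not called in either comparison, with values between -0.02 and 0.07. The 95% intervals were -0.10 to 0.06 for Cox5b in PR and -0.06 to 0.12 for Cox5a. Cox5a was called lower in PR (-0.17) at the 75th percentile scaling only. A probe of Cox7c, a short subunit of the inner membrane, was lower in PR by -0.24 ± 0.07 (adjusted p = 0.0212), while its other bright probe was at 0.07.

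Several subunits of complex IV exist as isoforms that are made in different tissues, and these were compared side by side. Cox6a1, the form found in brain and liver, fell by 0.11 ± 0.04 in PR (adjusted p = 0.0453) and by 0.15 ± 0.04 in FA (adjusted p = 0.0113). The PR difference of Cox6a1 was no longer called under 14 of the alternatives tried, and it was -0.02 with quantile and near 0 with normexp correction. Its counterpart of heart and muscle, Cox6a2, was at -0.15 and -0.14 and was not called. Cox8b, the heart and muscle form of Cox8, fell by 0.23 ± 0.07 in PR (adjusted p = 0.0235) and by 0.28 ± 0.07 in FA (adjusted p = 0.00832), with CD arrays at 9.83 to 9.96, PR arrays at 9.57 to 9.81, and FA arrays at 9.48 to 9.71. Cox8a, the widely made form, was not called by either probe, with values between -0.05 and 0.07. Cox7a1, of muscle and brown fat, was at -0.17 and -0.09 and Cox7a2 at -0.10 and -0.09, and none of these was called. Cox6b1 and Cox7b, the general forms, and Cox6b2 and Cox7b2, the testis forms, were not called, with the widest interval for Cox7b2 in PR (0.39, 0.05 to 0.72). Cox8c, the testis form of Cox8, was called lower in PR although no array measured it well above background, and it is given no level here. Beside the muscle isoforms, markers of cardiac muscle were measured. Lower calls made up 16.6% of all probes in PR and 18% in FA, and higher calls 13.4% and 16.4%. Of 7 cardiac probes, 4 were lower in PR and 3 in FA, of which the probe of Actc1 and 1 of Myh6 were not well above background on any array. With normexp correction 2 and 1 were lower. Their summed log2 level was 12.37 to 12.60 in CD, 12.40 to 12.59 in PR, and 12.41 to 12.59 in FA. Of 12 skeletal muscle probes, 0 were lower and 1 higher in each comparison, a probe of Mylpf that was well above background on 2 arrays, with a summed level of 10.57 to 11.25 in CD, 10.50 to 10.57 in PR, and 10.57 to 12.26 in FA. The part of these cells in the Cox8b difference was not tested.

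Cox7a2l, counted here with complex IV, had probes on opposite sides of 0 in PR. The probe A_55_P2102569 had intensities of 13.21, 13.18, 13.18 and 13.09 in the CD arrays, 13.30, 13.23, 13.56 and 13.48 in the PR arrays and 13.59, 13.61, 13.75 and 13.59 in the FA arrays. All FA arrays lay above all PR arrays, and the difference from CD was 0.23 ± 0.07 (adjusted p = 0.0424) in PR against CD and 0.47 ± 0.07 (adjusted p = 0.000915) in FA against CD. FA against PR gave 0.24 ± 0.07 for this probe, with an adjusted p of 0.17. The PR call of this probe was lost in 11 of the alternatives tried (0.16 to 0.24). In contrast, A_55_P2151071 was at -0.17 ± 0.05 in PR (adjusted p = 0.0327) and -0.07 ± 0.05 in FA (adjusted p = 0.36), and A_66_P129419 was at -0.09 and -0.03. The PR call of A_55_P2151071 was lost in 7 alternatives (-0.17 to -0.10), so that neither direction was called in PR under all settings. Both lower probes map to chr17:83901272-83901350 on mm9. Each of the 3 probes lists predicted transcript records as well, so that which transcript each reads is uncertain. The files place only 5 bases of A_55_P2102569 on the genome, at chr17:83901237-83901241. The last 30 bases of 1 probe of each kind are shown because their letters differ, with the AATAAA run, the usual polyadenylation signal, in capitals.
Cox7a2l A_55_P2102569: agatggcctgtcagatgtcagagcttgttt
Cox7a2l A_55_P2151071: attgaccggactgcggAATAAAcactggaa

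Complex V, the ATP synthase, had the lowest median of the complexes in PR (-0.10). In PR, 9 of its 24 probes were lower and 1 higher, and in FA 8 were lower and 1 higher, with a median of -0.08. Atp5b, the catalytic beta subunit, was the higher one. Its intensities were 16.36, 16.58, 16.71 and 16.74 in the CD arrays, 16.81, 16.85, 16.88 and 16.91 in the PR arrays and 16.78, 16.96, 16.94 and 16.96 in the FA arrays. The PR and FA arrays lay above CD, although CD spread over a wide range, and the difference was 0.27 ± 0.08 (adjusted p = 0.0307) in PR against CD and 0.31 ± 0.08 (adjusted p = 0.0133) in FA against CD. Both calls of Atp5b were lost at the 75th percentile scaling, at 0.06 in PR and 0.15 in FA. The PR call was also lost with quantile normalization (0.25), with only these groups fitted (0.27), and without CD replicate 1 (0.19), CD replicate 2 (0.26), or any of PR replicates 2 to 4 (0.25 to 0.27). Atp5a1, the alpha subunit that alternates with beta in the catalytic head, was at -0.02 and 0.07 and was not called.

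The lower calls of complex V came from the central stalk, the peripheral stalk, and the membrane part. Atp5e, the short epsilon subunit of the central stalk, had intensities of 16.30, 16.28, 16.26 and 16.21 in the CD arrays, 16.07, 16.01, 15.80 and 15.79 in the PR arrays and 15.75, 15.85, 16.11 and 15.87 in the FA arrays. Each PR and FA array was below each CD array, and Atp5e fell by 0.35 ± 0.09 in PR (adjusted p = 0.0126) and by 0.37 ± 0.09 in FA (adjusted p = 0.00806). Atp5h, subunit d of the peripheral stalk, fell by 0.22 ± 0.05 in PR (adjusted p = 0.00891) and by 0.26 ± 0.05 in FA (adjusted p = 0.00315) by 1 probe, with CD arrays at 15.76 to 15.90, PR arrays at 15.53 to 15.63, and FA arrays at 15.43 to 15.62. The other Atp5h probe was at -0.07 and -0.21, not called. Atp5o and Atp5j, which also belong to the peripheral stalk, fell by 0.24 and 0.11 in PR and by 0.22 and 0.16 in FA. The PR call of Atp5j (adjusted p = 0.0435) was lost in 15 of the alternatives tried. Atp5g2 and Atp5g3 encode the same mature c subunit of the proton-carrying ring with different import sequences. Atp5g3 fell by 0.17 ± 0.04 in PR (adjusted p = 0.0094) and by 0.14 ± 0.04 in FA (adjusted p = 0.0148). Of the Atp5g2 probes, 1 was lower in FA (-0.13 ± 0.05, adjusted p = 0.0463) and at -0.12 in PR, not called (adjusted p = 0.0635). The other Atp5g2 probe was at 0.03 in FA and 0.05 in PR. Atp5k, subunit e of the membrane part, was lower in FA by 1 of its probes (-0.25 ± 0.05, adjusted p = 0.00587). In PR this probe was at -0.15 and was not called (adjusted p = 0.0623).

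The largest difference of all members was that of 1 Atp5c1 probe. Atp5c1 encodes the gamma subunit, the rotor of the ATP synthase. The probe A_55_P2150906 had intensities of 13.37, 13.42, 13.46 and 13.72 in the CD arrays, 12.66, 12.72, 12.74 and 12.80 in the PR arrays and 12.67, 12.84, 12.75 and 12.53 in the FA arrays. The lowest CD array exceeded the highest PR and FA arrays, and the probe fell by 0.77 ± 0.09 in PR (adjusted p = 0.00016) and by 0.80 ± 0.09 in FA (adjusted p = 0.000117), which is 0.588 and 0.576 times the CD level. The second probe of the gene, A_55_P2150908, had intensities of 16.13, 16.06, 16.07 and 16.02 in the CD arrays, 15.90, 16.06, 16.03 and 16.03 in the PR arrays and 16.02, 16.17, 16.07 and 16.08 in the FA arrays. Its groups overlapped, and the difference was -0.06 ± 0.05 in PR (95% interval -0.17 to 0.05) and 0.02 ± 0.05 in FA (95% interval -0.09 to 0.13). The intervals of the probes did not overlap in either comparison. On mm9, the first probe lies at chr2:9977665-9977724 and the second within chr2:9977788-9980644, the latter in pieces on both sides of a gap in its alignment. The gene runs on the minus strand, so that the first probe is nearer to its 3′ end. Their last 30 bases are shown because the result for this gene depends on which stretch was read, with AATAAA in capitals where it occurs.
Atp5c1 A_55_P2150906: gtaaattaccttacAATAAAcaacttacaa
Atp5c1 A_55_P2150908: gaaaatcaagttgcatcctcagacaagagg
AATAAA occurred in 34 of the 115 probes. In PR, 9 of these 34 were lower and 2 higher, and 18 of the 81 others were lower and 6 higher. Over all probes well above background on the 12 arrays, 556 of 3404 with AATAAA were lower and 278 higher, against 2848 and 3634 of 20349 without it.

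**Figure D3:**
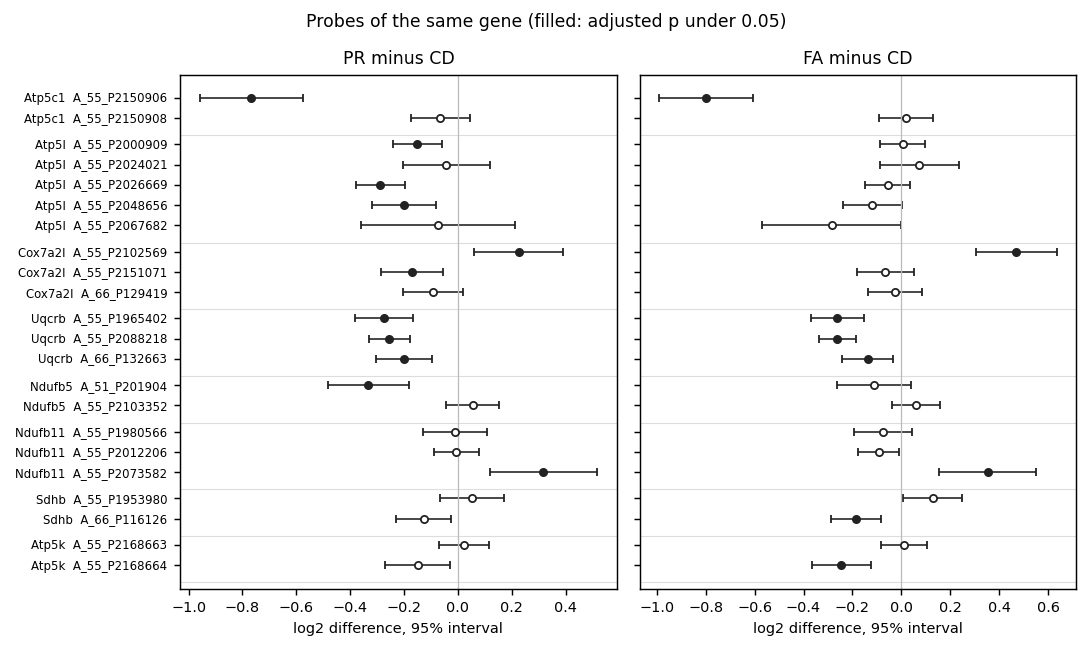
Log2 difference from CD (horizontal axis) with its 95% interval for every probe of 8 member genes, in PR (left) and FA (right), filled where it was called. The 3 Uqcrb probes lie together below 0, whereas the probes of Atp5c1, Cox7a2l, and Ndufb11 lie apart.

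Disagreement between probes was common. In PR, 10 of the 23 genes with several probes had some probes called and others not, and 12 had no call. In FA, 12 had some called and 10 had none. Ndufb5, of the membrane arm of complex I, was at -0.33 ± 0.07 in PR by the probe A_51_P201904 (adjusted p = 0.00467) and at 0.06 ± 0.04 by A_55_P2103352 (adjusted p = 0.372). Of the Ndufb11 probes, those at chrX:20192448-20192512 on mm9 were at -0.01 and -0.01 in PR, and were not called. The third, chrX:20194630-20194689, rose by 0.32 ± 0.09 in PR (adjusted p = 0.0226) and 0.35 ± 0.09 in FA (adjusted p = 0.0121). This probe was far dimmer, with a CD mean log2 intensity of 6.99 against 15.59 and 15.32 for the others. Of the members, 32 probes list predicted transcript records in addition, and near-identical copies of these genes could share their signal. In PR, 12 of these 32 were lower and 1 higher, and 15 of the 83 others were lower and 7 higher. When the probes of each gene were averaged, 18 of 85 genes were lower and 6 higher in PR, and 16 were lower and 9 higher in FA. The share over all averaged genes was not counted. Over all single probes, 16.6% were lower and 13.4% higher in PR, and 18% lower and 16.4% higher in FA.

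FA brains were also compared with PR brains, to see what the added folic acid changed. Only 1 of the 115 probes was called, higher in FA, while 0.228% of all probes were called higher and 0.386% lower. At an unadjusted p under 0.05, 10 of the 115 members and 5572 of the 39429 probes passed. The called probe was A_55_P2026669 of Atp5l, subunit g of the membrane part of the ATP synthase, with intensities of 14.72, 14.70, 14.74 and 14.62 in the CD arrays, 14.42, 14.37, 14.44 and 14.41 in the PR arrays and 14.59, 14.68, 14.68 and 14.62 in the FA arrays. The PR arrays lay below all others, and FA exceeded PR by 0.23 ± 0.04 (adjusted p = 0.0451). Against CD the probe was at -0.29 ± 0.04 in PR (adjusted p = 0.000611) and -0.06 ± 0.04 in FA (adjusted p = 0.318). The FA against PR call was lost in 15 of the alternatives tried, with values from 0.22 to 0.25, and it was kept without CD replicate 4 but lost without any other array.

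The other 4 probes of Atp5l were not called in FA against PR. Against CD, A_55_P2000909 was at -0.15 in PR (adjusted p = 0.0183) and 0.00 in FA, A_55_P2048656 at -0.20 (adjusted p = 0.0186) and -0.12, A_55_P2024021 at -0.04 and 0.07, and A_55_P2067682 at -0.07 and -0.29. Thus 3 of the 5 probes were lower in PR and none was called in FA against CD. On mm9, the files place all 5 probes between 44721315 and 44721483 of chromosome 9, where neighbors overlap, so that they are not independent measurements. A stretch of 30 bases is shown for the 3 probes that hold it whole, because their letters differ at 4 positions, which are in capitals.
Atp5l A_55_P2000909: ttggaccatgtgtaaCAGgacTgctatctg
Atp5l A_55_P2024021: ttggaccatgtgtaaAGAgacTgctatctg
Atp5l A_55_P2026669: ttggaccatgtgtaaCGGgacCgctatctg
The files assign all of them to Atp5l and list several predicted records beside it. Which transcript each probe reads is therefore uncertain.

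Of the assembly factors, Ndufaf2 was lower in PR by -0.20 ± 0.07 (adjusted p = 0.0411) and at -0.13 in FA, where it was not called. A probe of Ndufaf4 rose in FA by 0.23 ± 0.06 (adjusted p = 0.0091), and its other probe was at -0.06. Ndufaf1 and Ndufaf3 were not called, and neither were Atp5s and Atp5sl, with differences between -0.09 and 0.12. Among 35 probes for 24 assembly factors with other names, 7 were lower and 2 higher in PR, and 4 were lower and 3 higher in FA. Across all probes, the shares were 16.6% lower and 13.4% higher in PR, and 18% lower and 16.4% higher in FA. Foxred1, an assembly factor of complex I, rose by 0.33 ± 0.05 (adjusted p = 0.00119) in PR and by 0.49 ± 0.05 (adjusted p = 0.000113) in FA. The other higher call in PR was a probe of Ttc19 (0.26), whose other probes were not called there. Ecsit was lower in PR (-0.20, adjusted p = 0.00397) and in FA (-0.12, adjusted p = 0.0447). Both probes of Nubpl were lower in PR (-0.22 and -0.25) and not called in FA (-0.16 and -0.19). Sdhaf1 (-0.15) and a probe of Oxa1l (-0.21) were lower in PR only, while the other Oxa1l probe was at 0.06. The lower calls of Cox17, which carries copper to complex IV, came in both comparisons from a probe that was not well above background on any array, and it is given no level here. Atpaf1, which helps to assemble the head of the ATP synthase, fell by 0.50 ± 0.15 in PR (adjusted p = 0.0265) and by 0.42 ± 0.15 in FA (adjusted p = 0.049). Its probe was dim, and its CD arrays, at 6.18 to 6.88, overlapped with those of both other groups.

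**Figure D4:**
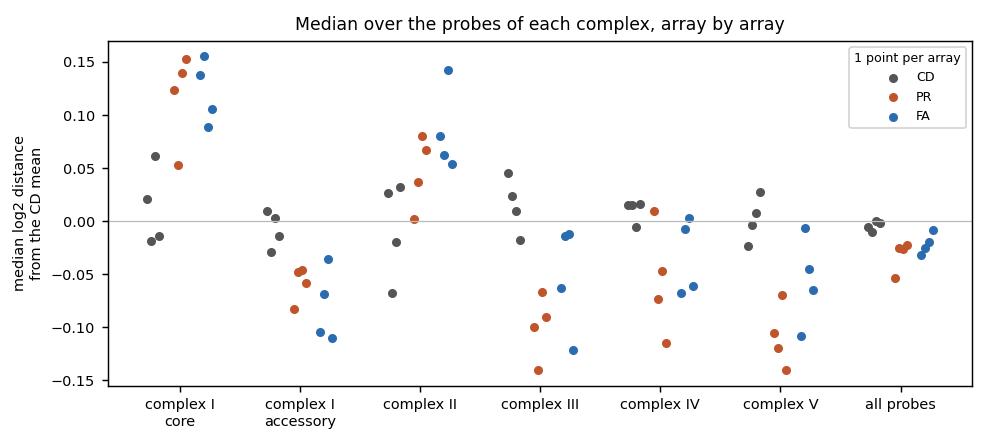
Median over the probes of each complex of the log2 distance from the mean of the CD arrays (vertical axis), with 1 point per array and the median over all probes at the right. The PR and FA points of the nuclear core genes of complex I lie at 0.05 to 0.16. Those of its accessory subunits lie at -0.11 to -0.04.

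The medians of single arrays showed how uniform these shifts were. Over all members, the CD arrays lay between -0.02 and 0.01, the PR arrays between -0.07 and -0.04, and the FA arrays between -0.08 and -0.01. Over all probes of the array, the PR arrays lay between -0.05 and -0.02 and the FA arrays between -0.03 and -0.01. For the complex I core, the CD arrays were at -0.02 to 0.06, the PR arrays at 0.05 to 0.15, and the FA arrays at 0.09 to 0.16, with an overlap between 1 CD and 1 PR array. For complex V, the CD arrays were at -0.02 to 0.03, the PR arrays at -0.14 to -0.07, and the FA arrays at -0.11 to -0.01, so that FA overlapped with CD and PR did not.

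**Figure D5:**
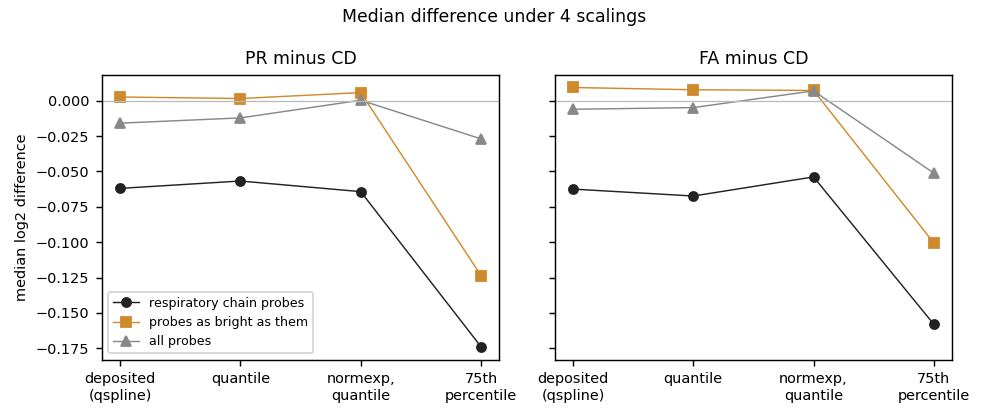
Median log2 difference from CD (vertical axis) under 4 scalings of the arrays (horizontal axis), for the respiratory chain probes, for the 3014 probes at least as bright as their lower quartile, and for all probes. At the 75th percentile scaling the bright probes moved to -0.12 in PR and -0.10 in FA, and the respiratory chain probes stayed below them under each scaling.

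The size of the shift depended on the scaling. The deposited values, quantile normalization, and normexp correction followed by quantile normalization gave medians of -0.06, -0.06, and -0.06 in PR and -0.06, -0.07, and -0.05 in FA over the members. Scaling each array to its 75th percentile gave -0.17 and -0.16, with 63 probes lower and 4 higher in PR and 55 lower and 6 higher in FA. Complexes II, III, IV, and V then had 2, 7, 11, and 17 probes lower and 0, 0, 1, and 0 higher in PR, and 2, 5, 10, and 12 lower and 0, 1, 1, and 0 higher in FA. Under this scaling, however, the probes at least as bright as the members' lower quartile were at -0.12 and -0.10. Of these, 38.1% and 33.6% were called lower. Relative to these bright probes, the members were at -0.06, -0.06, -0.07, and -0.05 in PR and at -0.07, -0.08, -0.06, and -0.06 in FA, in the order of deposited, quantile, normexp, and 75th percentile values.

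Other genes of mitochondrial energy metabolism were counted from lists. For comparison, 16.6% of all probes were called lower and 13.4% higher in PR, and 18% lower and 16.4% higher in FA. At the 75th percentile scaling, 8265 of the 39429 probes were lower and 6281 higher in PR, and 9148 lower and 6449 higher in FA. Of 8 probes for cytochrome c and further subunits outside the naming rule, 1 was called in each comparison, Cyc1, the cytochrome c1 of complex III, which rose by 0.25 ± 0.06 (adjusted p = 0.00802) in PR and by 0.38 ± 0.06 (adjusted p = 0.000632) in FA. At the 75th percentile scaling this list had 3 lower and 0 higher in PR, and 1 lower and 1 higher in FA. Among 17 probes of 13 tricarboxylic acid cycle genes, 6 were higher and 0 lower in PR, and 8 were higher and 0 lower in FA. Idh3b, a subunit of isocitrate dehydrogenase, rose by 0.46 ± 0.07 (adjusted p = 0.00111) in PR and by 0.67 ± 0.07 (adjusted p = 0.000124) in FA. Suclg1, a subunit of succinyl-CoA ligase, rose by 0.26 ± 0.05 (adjusted p = 0.00241) in PR and by 0.34 ± 0.05 (adjusted p = 0.000438) in FA. At the 75th percentile scaling, 6 of the 17 were higher and 3 lower in PR, and 8 higher and 1 lower in FA. Of 14 probes for ATP export and uncoupling, 2 were higher in PR and 5 in FA and 0 were lower, among them Slc25a5, an ATP carrier of the inner membrane (0.12 and 0.12). At the 75th percentile scaling this list had 5 lower and 4 higher in PR and 1 lower and 3 higher in FA.

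Subunits encoded in the mitochondrial genome were measured by 12 probes, of which 4 were lower and 4 higher in PR, and 2 lower and 3 higher in FA. At the 75th percentile scaling, 6 were lower and 3 higher in PR, and 6 lower and 1 higher in FA. ND1 rose by 0.58 ± 0.09 (adjusted p = 0.00117) in PR and by 0.53 ± 0.09 (adjusted p = 0.00167) in FA, ND5 rose by 0.38 ± 0.07 (adjusted p = 0.00278) in PR and by 0.27 ± 0.07 (adjusted p = 0.0127) in FA, and ND6 fell by 1.01 ± 0.18 in PR (adjusted p = 0.00251) and by 0.98 ± 0.18 in FA (adjusted p = 0.00236). All of these are subunits of complex I. COX1, the catalytic subunit of complex IV, fell by 0.32 ± 0.07 in PR (adjusted p = 0.00891) and by 0.29 ± 0.07 in FA (adjusted p = 0.0117). Of 27 probes for regulators of mitochondrial gene expression, 4 were lower and 6 higher in each comparison. Beside this and the mitochondrially encoded list, 16.6% of all probes were lower and 13.4% higher in PR. In FA, the shares over all probes were 18% lower and 16.4% higher. Tfam, which packs mitochondrial DNA and starts its transcription, rose by 0.51 ± 0.09 (adjusted p = 0.00162) in PR and by 0.76 ± 0.09 (adjusted p = 0.000144) in FA by 1 of its 3 probes. The other Tfam probes were not called, with values from 0.03 to 0.12. Polg, the mitochondrial DNA polymerase, rose by both of its probes (0.22 and 0.33 in PR, 0.36 and 0.48 in FA). Ppargc1b and Pprc1, coactivators of nuclear genes for mitochondria, fell by 0.57 and 0.35 in PR and by 0.70 and 0.28 in FA. Their relative Ppargc1a was higher in PR (0.35 ± 0.08 (adjusted p = 0.00889)) and at 0.06 in FA by 1 probe, and its other probe was at -0.03 and -0.06.

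Nuclear genes for the respiratory chain are known targets of NRF-1, of ETS factors such as GABP, and of YY1. RefSeq start sites on GRCm38.p6 were available for 72 of the 85 member genes, each with 250 bases before and 50 after the start. On either strand, the NRF-1 palindrome, searched as 1 exact run, was found in 6 of the 72 (8.33%) and in 1.07% of all 27025 genes. The YY1 run AAGATGGCG was found in 8 (11.1%, against 1.64% of all genes), and the ETS run CCGGAAGTG in 2 (2.78%, against 2.25%). GGGCGG (Sp1) was found in 45.8% of members and 38.2% of all genes, CCAAT in 44.4% and 41.1%, TATAAA in 9.72% and 15.7%, and CACGTG in 8.33% and 8.09%. None of these runs contains another. The NRF-1 run was present in 2 of the 9 genes with only higher calls in PR or FA, in 3 of the 25 with only lower calls, and in 1 of the 37 with no call. It is shown in capitals with the bases around it for the 5 genes that held it and had a called probe.
Atp5g2, chr15:102671070-102671099, minus strand: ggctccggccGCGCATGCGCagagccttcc
Atp5k, chr5:108434430-108434459, minus strand: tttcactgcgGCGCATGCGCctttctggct
Cox6a1, chr5:115349101-115349130, minus strand: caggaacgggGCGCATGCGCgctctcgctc
Ndufaf4, chr4:24897960-24897989, plus strand: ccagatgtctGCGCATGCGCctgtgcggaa
Uqcrc1, chr9:108936668-108936697, plus strand: actccgctctGCGCATGCGCagcgcggctc
In Uqcrc1 the run starts 30 bases after the start site, and in the others 42 to 162 bases before it.

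Markers of the main cell types of the brain were counted beside the members. For these counts too, 16.6% of all probes were lower and 13.4% higher in PR, and 18% lower and 16.4% higher in FA. Of 7 endothelial probes, 5 were higher in each comparison and 0 lower in PR and 1 in FA, with a summed log2 level of 15.17 to 15.23 in CD, 15.34 to 15.57 in PR, and 15.37 to 15.54 in FA. Of 11 oligodendrocyte probes, 5 were higher and 1 lower in PR, and 3 higher and 1 lower in FA, with summed levels of 17.96 to 18.11, 18.02 to 18.18, and 18.09 to 18.21. Of 6 neuronal probes, 2 were higher in each comparison and 1 lower in PR, with summed levels of 17.68 to 17.88, 17.80 to 17.84, and 17.77 to 17.87. Astrocyte, microglia, parvalbumin interneuron, choroid plexus, and blood markers had 3, 3, 2, 0, and 0 probes higher and 2, 3, 1, 0, and 0 lower in PR. Each probe of these lists passed the background flag on all 12 arrays. Of 6 brown fat probes, 4 of them well above background on every array, 2 were lower and 1 higher in PR, and 3 lower and 1 higher in FA, with summed levels of 11.886 to 11.998, 11.67 to 11.80, and 11.65 to 11.74. Of 7 testis probes, of which 1 was measured on every array, 0 were lower and 2 higher in PR and 0 lower and 1 higher in FA, with summed levels of 7.63 to 8.32, 8.09 to 8.35, and 7.78 to 8.07. The part of cell composition in the differences of the respiratory chain was not tested.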

How the data were processed

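RNA of 12 whole brains was labeled with Cy3 and hybridized to Agilent whole-genome arrays, 1 array per mouse. Per the file headers, spots were read by the authors in Agilent Feature Extraction 11.0.1.1 with mm9 annotation, and they deposited the spot intensities with flags for outlier, saturated, and well-above-background spots. The authors also deposited a table of 1 normalized intensity per probe (qspline), on the linear scale. Log2 of that table was the main measure here. Its correlation with the log2 scanner signal was 0.997 to 0.999. No spot was saturated. Methylation arrays were not analysed here, and member genes that are not named are counted but not described.

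Groups came from the diet labels. All 3 groups entered 1 limma fit (limma 3.58.1, R 4.3.3), with Benjamini-Hochberg adjustment over the 39429 probes of each comparison. Errors of differences are standard errors of this fit, with 4 arrays per group, and the number of arrays limits the precision. Probes were not averaged over genes. Named were, in PR and FA against CD, up to 10 lower and 10 higher called members with the smallest p, the members of each complex with the smallest p and the smallest difference, members called in FA against PR, and preset isoforms, core subunits, and assembly factors. Further members were named after their values were seen, to show disagreeing probes or all calls of a complex. The members, lists, and tests were chosen with earlier results of these data known. The lists covered electron carriers, assembly factors, mitochondrially encoded subunits, regulators of biogenesis, the tricarboxylic acid cycle, ATP export, and markers of neurons, parvalbumin interneurons, astrocytes, oligodendrocytes, microglia, endothelium, skeletal and cardiac muscle, brown fat, testis, blood, and choroid plexus.

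Alternatives were 75th percentile scaling, quantile normalization, normexp correction (offset 50), removal of outlier spots or dim probes, a block for the replicate number, a robust fit with a variance trend, only the groups compared, the Tukey test of the study's methods, stricter limits, 1 value per gene, and leaving out each array. Gene symbols are those in the files, and 113 of the 115 probes matched a RefSeq transcript (GRCm38.p6) by accession. Probe sequences and mm9 positions were read from the array files, and promoter stretches from RefSeq. The limma script was tested on simulated data.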

Additional observations from a re-analysis of the deposited data

Results flagged for a closer look

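Single arrays that stood apart were looked for in each group of 4, over 63 named probes and the medians of all members, the complexes, and the factors. Of 210 groups of 4 arrays, 18 held an array whose gap to the nearest other exceeded Dixon's 95% critical share of the range of the group. Chance alone gives about 1 in 20 such groups.

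In CD, these were Ndufaf4 A_51_P162098 in replicate 1 (log2 intensity 12.03, others 11.93 to 11.94), Ndufs1 in replicate 1 (15.02, others 14.92 to 14.93), Cox8c in replicate 3 (2.56, others 2.63 to 2.65, not well above background), Atp5a1 in replicate 4 (15.66, others 15.82 to 15.85), and Uqcrb A_55_P2088218 in replicate 4 (13.16, others 13.19 to 13.20). In PR, they were Cox7a1 in replicate 4 (10.98, others 11.10 to 11.12), Ndufs1 in replicate 1 (14.85, others 14.98 to 15.00), Cox8a A_51_P517495 in replicate 1 (17.11, others 17.05 to 17.05), Atp5j in replicate 4 (14.79, others 14.86 to 14.86), and Ndufs7 in replicate 2 (15.64, others 15.72 to 15.73). In FA, they were Cox6a1 in replicate 4 (17.70, others 17.68 to 17.68), Atp5b in replicate 1 (16.78, others 16.94 to 16.96), Atp5j in replicate 4 (14.75, others 14.80 to 14.81), Cox7a2l A_55_P2102569 in replicate 3 (13.75, others 13.59 to 13.61), and Ndufaf1 in replicate 2 (11.93, others 11.78 to 11.79).

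Among the medians of log2 distances from the CD mean, complex IV stood apart in CD replicate 3 (-0.0057, others 0.01 to 0.02), and the factors in CD replicate 4 (0.12, others -0.02 to 0.00) and FA replicate 4 (-0.12, others -0.01 to 0.00). The diets differed from each other in 1 probe, Atp5l A_55_P2026669, whose difference from CD was higher in FA than in PR by 0.23 on the log2 scale in the limma fit.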

How the results depend on the processing

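Scaling to the 75th percentile moved the most values. It gave 63 lower and 4 higher members in PR, 55 lower and 6 higher in FA, 0 in FA against PR, and member medians of -0.17 and -0.16. It turned the PR difference of Ndufv1 to -0.0135 and that of Cox5a to -0.17. With the limits of the study's methods (2-fold, adjusted p under 0.0001) applied to the limma fit, all counts were 0. With only the groups compared in the fit, 5 members were higher in PR, 15 lower in FA, and 0 called in FA against PR. The Tukey test left 4 higher in PR and 0 in FA against PR. The FA against PR call was also lost (0) with normexp correction and with 1 value per gene. The cause of these changes was not tested. When each array was left out in turn, the lower members numbered 18 to 28 and the higher ones 3 to 9 in PR, 14 to 25 and 10 to 13 in FA, and 0 to 1 in FA against PR, with member medians of -0.07 to -0.05, -0.07 to -0.05, and -0.00 to 0.02. Of the named probes called in PR, 15 of 27 kept the call whichever array was left out, and in FA 24 of 27. Those that did not were Uqcrc1, Atp5b, Atp5j, Atp5l A_55_P2000909, Cox6a1, both Cox7a2l probes, Cox8b, Ndufaf2, Ndufb11, Ndufv1, and Ndufv2 in PR, and Atp5g2, Ndufs8, and Sdha in FA. Calls in FA were also lost for Ndufs8 (0.14) and Sdhc (0.15) at the 75th percentile scaling, for Ndufs8 (0.14), Cox6a1 (-0.08), and Atp5g2 (-0.12) with normexp, for Cox6a1 (-0.07) with quantile normalization, and for Atp5g2 (-0.13) with the block or only the groups compared. In PR, they were lost for Cox8b (-0.15) and Atp5j (-0.09) with normexp, for Atp5j (-0.11) with the block, and for Atp5j (-0.11) and Ndufaf2 (-0.20) with only the groups compared. Same-numbered arrays of different diets deviated together weakly or not at all (correlations from -0.06 to 0.20). Of the 12 arrays, 5 correlated best with their own number. This check cannot settle whether the numbers pair the mice. With the replicate number as a block, 25 members were lower and 8 higher in PR, 16 lower and 11 higher in FA, and 0 called in FA against PR. Quantile normalization, leaving out outlier spots or dim probes, and a variance trend moved no count by over 1.5 times.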
